A study of Homo sapiens with 6 samples.

Results

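The genes that copy DNA and supply its building blocks were examined in H460 cells after depletion of the long intergenic noncoding RNA HKlincR1 (AC093323.3). The list held 43 genes chosen by name: the sliding clamp and its loaders, the replicative polymerases, primase, the single-strand binding complex RPA, GINS and CDC45, the enzymes of the lagging strand, the fork protection proteins, the enzymes of deoxynucleotide synthesis, and a small group for chromatin and histone supply. Of these, 42 were matched to a row among the 57773 gene identifiers of the expression table, and UHRF1 was not analysed here. H460 is a non-small-cell lung cancer cell line, and every library came from this line. The control group (siNT) was 3 cultures given a non-targeting siRNA and the knockdown group (siHKlincR1) was 3 cultures given the siRNA siHKlincR1_2, with each siRNA transfected at 50 nM and cells collected after 48 hours. Transcripts with a polyA tail were sequenced on the Illumina platform and expressed as RPKM, reads scaled by gene length and by sequencing depth. Because 1 siRNA was used, effects of that siRNA other than loss of HKlincR1 cannot be told apart from effects of its loss.

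Replication forks are built around the CMG helicase, in which CDC45 and the GINS tetramer join the MCM ring. DNA polymerase alpha and primase lay down primers, polymerase epsilon extends the leading strand and polymerase delta the lagging strand, both tethered to PCNA, a ring that the RFC complex opens and closes around DNA. Many of these genes are transcribed mainly as cells approach and pass through S phase, and E2F transcription factors are among their best known regulators. In a bulk library, fewer cells in S phase and less RNA per cell cannot be told apart.

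The 2 strands of the siRNA and short stretches of the members that carry its seed site are shown first, because a seed match is one way in which an siRNA can lower a transcript directly. The capitals mark the seed of the guide strand (its bases 2 to 8) and the bases that pair with it.
siHKlincR1_2 sense strand: gaaguauacucGUGUGCUu
siHKlincR1_2 guide strand: aAGCACACgaguauacuuc
The seed site GTGTGCT was found in the annotated 3′ UTR of 4 of the 42 members (9.52%), against 14.1% of 10765 genes that were tested and have a 3′ UTR of at least 30 bases. These members were DUT, POLD3, RNASEH2A and GINS4, and POLD3 held 3 copies. The sites of the first 3 genes are given in GRCh37, on the plus strand, each with the site in capitals.
DUT site, chr15:48635184-48635212: aagttttgctaGTGTGCTttcctttcttt
POLD3 site 1, chr11:74352586-74352614: gctgatacgggGTGTGCTttatgctgctc
POLD3 site 2, chr11:74352706-74352734: tcctatatacaGTGTGCTacatttacaaa
POLD3 site 3, chr11:74353028-74353056: ggattgcagtgGTGTGCTggtgattttgc
RNASEH2A site, chr19:12924375-12924403: gcaaggtgggaGTGTGCTctgcagccggg
The median log2 fold change was -0.25 for the 4 members with the site and -0.19 for the 38 without it, of which 33 had an estimate below 0. Over all tested genes with such a 3′ UTR, the median was -0.08 for the 1513 with the site and -0.01 for those without it. A match is a description of sequence, and pairing at these sites was not tested.

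The 6 libraries held 24980280 to 30521000 reads each, worked back from the RPKM values, and every member was covered by 142 to 12986 reads per library. HKlincR1 (ENSG00000170846) was at 3.62, 3.47 and 3.83 RPKM in the siNT libraries and at 0.563, 0.628 and 0.39 RPKM in the siHKlincR1 libraries, a mean reduction of 85.5% (log2 fold change -2.59, SE 0.17, adjusted p = 0.00245). Of 5 epithelial markers, the keratins KRT8, KRT18 and KRT19 were at 28.1 to 88.5 RPKM, whereas EPCAM did not exceed 0.11 RPKM and CDH1 was at 0 in all libraries but 1, at 0.00543 RPKM. The leukocyte marker PTPRC did not exceed 0.0691 RPKM. The fibroblast collagen gene COL1A1 was at 0.998 to 1.23 RPKM in siNT and at 0.419 to 0.773 RPKM in siHKlincR1 (log2 fold change -0.85, adjusted p = 0.196), and its part in the values below was not tested. Library siHKlincR1 3 stood apart from its group for the members and for some other lists of replication genes, as described below. Over all tested genes, the standard deviation of the log2 difference was 0.435 and 0.474 between siHKlincR1 3 and siHKlincR1 1 and 2. It was 0.358 between siHKlincR1 1 and siHKlincR1 2. For siNT 3 against siNT 1 and 2 it was 0.412 and 0.405, against 0.334 between siNT 1 and siNT 2. For the members, the calls, the group medians and the fold changes of the genes called without siHKlincR1 3 are given with and without it.

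No member differed between the groups at an adjusted p below 0.05 with a change of more than 1.5-fold, although 36 of the 42 estimates lay below 0. The median log2 fold change of the members was -0.19, against 0.00 over the 15451 genes tested. The lowest estimates were those of the flap endonuclease FEN1 (33.9% lower), the checkpoint adaptor CLSPN (33.1% lower), thymidylate synthase TYMS (32.3% lower), GINS1 (31.6% lower) and PCNA (29.6% lower). Polymerase alpha (POLA1), RFC4, PRIM1, TIPIN, DUT and POLD4 had estimates between 0.00 and 0.05. Fold changes here are differences of log2(RPKM + 0.1).

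The count of members called was 0 in each direction with limma, where 0.356% of all genes tested were called lower and 0.00647% higher. With replicates blocked by their number, the counts were again 0 and 0, against 0.809% of all genes lower and 0.511% higher. At an unadjusted p below 0.05, 11 members were lower without the block (9.19% of all genes) and 23 with it (14.0%). An estimate below 0 was found for 36 members and for 49.8% of all genes. The lowest adjusted p was 0.0973 without the block, for POLD3, and 0.0534 with it, for FEN1. When limma with voom weights was run on the reads, no member was called without the block, and FEN1, CLSPN and TYMS were called lower with it, against 1.71% of all genes. In that fit 13 members had an adjusted p below 0.05 at any fold, against 7.52% of all genes lower: PCNA, RFC5, CHTF18, POLD3, POLE, RPA1, GINS1, GINS2, GINS4, FEN1, CLSPN, TYMS and TK1.

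Members differed widely in level within the same complex. In siNT, PCNA had the highest RPKM of the members at 92.6 ± 13.0 (SD, n = 3). POLD4, the smallest subunit of polymerase delta, had the lowest at 1.77 ± 0.214 RPKM. RRM2, the small subunit of ribonucleotide reductase, was at 83.2 ± 6.41 RPKM and its partner RRM1 at 35.8 ± 0.890 RPKM. The histone-fold subunit POLE3 was at 54.5 ± 7.71 RPKM and POLE, the catalytic subunit of polymerase epsilon, at 7.66 ± 0.140 RPKM. RPKM is scaled by a gene length that can be well above that of the main transcript, as for POLE, and by an unequal factor between genes. Levels and their order can therefore be compared between genes only roughly, and reads of genes with pseudogenes may be split. They also measure RNA and not subunits.

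**Figure D1:**
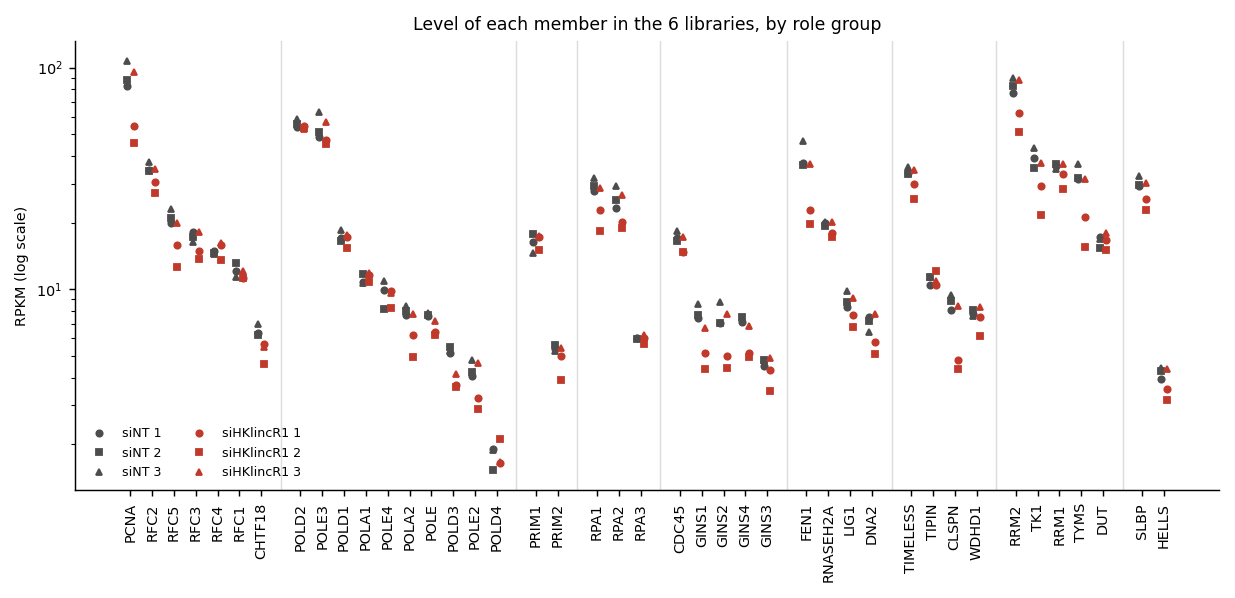
Level of the 42 members in RPKM (log scale), by role group, with siNT libraries in grey and siHKlincR1 libraries in red and 1 symbol per replicate number. Levels run from 1.77 RPKM for POLD4 to 92.6 RPKM for PCNA (siNT means), and the siHKlincR1 3 triangle lies above the other siHKlincR1 symbols for 37 of 42 members.

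The change was uneven between the siHKlincR1 libraries. The median member lay at -0.21, -0.40 and 0.01 on the log2 scale from the siNT mean in siHKlincR1 1, 2 and 3, and at -0.04, -0.02 and 0.08 in siNT 1, 2 and 3. Thus siHKlincR1 1 and 2 were below the controls and siHKlincR1 3 was level with them. This was not particular to the members. The same medians were -0.26, -0.43 and 0.06 for origin licensing and firing, and -0.30, -0.38 and -0.04 for chromatin assembly. For other fork and checkpoint genes they were -0.11, -0.35 and 0.01, and for the E2F family -0.34, -0.13 and -0.08. Other nucleotide enzymes were at 0.08, 0.05 and 0.04, and repair and mitochondrial polymerases at 0.04, 0.03 and 0.01. Library siHKlincR1 3 was the highest of its group for 37 of 42 members, as it was for 39.1% of all genes tested, and siHKlincR1 2 was the lowest of its group for 37 (37.1% of all genes). Among the controls, siNT 3 was the highest for 27 members (38.5% of all genes).

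Libraries siHKlincR1 1 and 2 were both below every siNT library for 32 members, against 25.4% of all genes. Taken by replicate number, the median member differed by -0.18, -0.39 and -0.10 between siHKlincR1 and siNT in pairs 1, 2 and 3, with 36, 39 and 29 of 42 members lower. In all 3 pairs 24 members were lower, against 25.2% of all genes. HKlincR1 itself was at 0.563, 0.628 and 0.39 RPKM in siHKlincR1 1, 2 and 3, from 37, 42 and 27 reads. Its relation to the member values across these libraries was not tested.

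**Figure D2:**
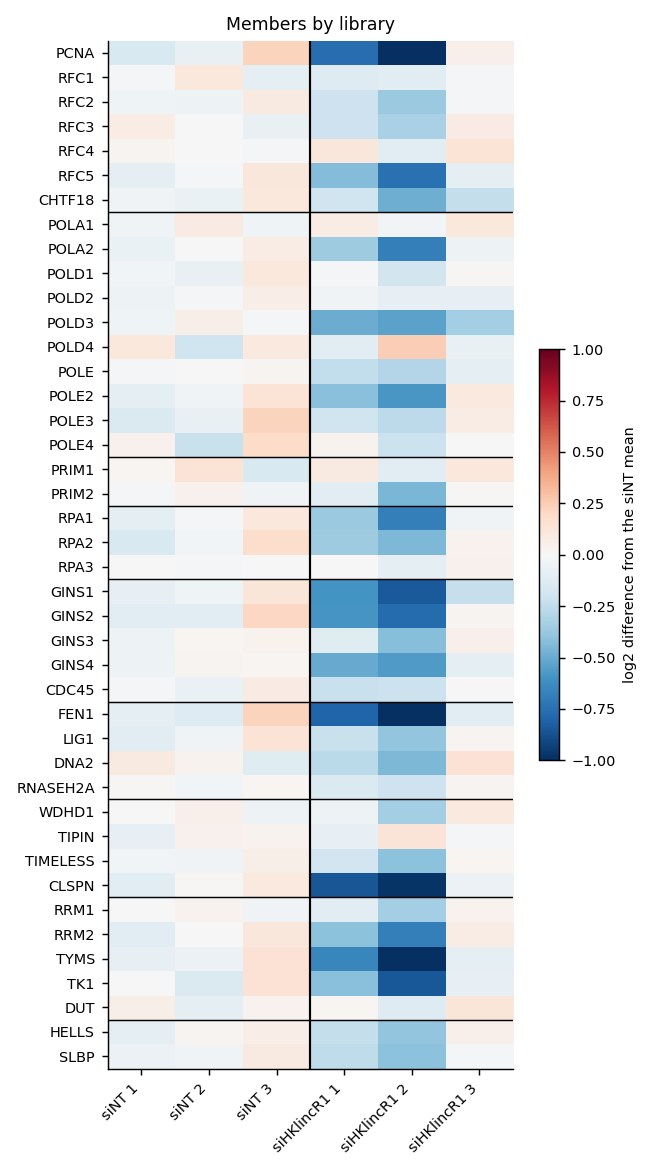
Log2 difference of each member from its siNT mean in the 6 libraries, ordered by role group (black lines), with blue for lower and red for higher and the scale closed at -1 and 1. The medians over members are -0.21, -0.40 and 0.01 in siHKlincR1 1, 2 and 3, so the blue columns are siHKlincR1 1 and 2.

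Without siHKlincR1 3, 7 members were called lower, against 2.03% of all genes: PCNA, RFC5, GINS1, GINS2, FEN1, CLSPN and TYMS. Their log2 fold changes in that comparison of 2 libraries with 3 were -0.92 for CLSPN (adjusted p = 0.0173), -0.90 for FEN1, -0.88 for PCNA and for TYMS, -0.72 for GINS1, -0.68 for GINS2 and -0.59 for RFC5 (adjusted p = 0.0381). Library siHKlincR1 3 stood apart by the same member values, so these calls are not separate evidence of a change. Leaving out siHKlincR1 1 or siHKlincR1 2 instead called 0 members. The median over all members was -0.30 without siHKlincR1 3 and -0.093 without siHKlincR1 2, against -0.19 with every library. Without siHKlincR1 3 the median was -0.40 for RPA, -0.33 for the lagging-strand enzymes, -0.32 for the chromatin and histone group, -0.25 for fork protection and -0.15 for primase. Without siHKlincR1 2 these were -0.16, -0.08, -0.11, -0.068 and 0.022. With every library they were -0.26, -0.19, -0.21, -0.15 and -0.08. In the comparison without siHKlincR1 3, POLD3, the third subunit of polymerase delta, had an adjusted p of 0.0284 but a change of less than 1.5-fold (log2 fold change -0.52). The same held for GINS4, RRM2, RPA1, POLE2 and POLA2, with log2 fold changes from -0.55 to -0.50 and adjusted p from 0.028 to 0.048. The share of all genes at this setting was not counted. All 3 siHKlincR1 libraries lay below all 3 siNT libraries for 6 of 42 members, CHTF18, POLD3, POLE, GINS1, GINS4 and TYMS, against 11.9% of all genes. The reverse held for 0 members, against 10.1% of all genes. Complete separation towards lower values was thus about as common among all genes as among the members. With 3 libraries a group, the smallest two-sided p of an exact permutation test on 1 gene is 0.10.

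**Figure D3:**
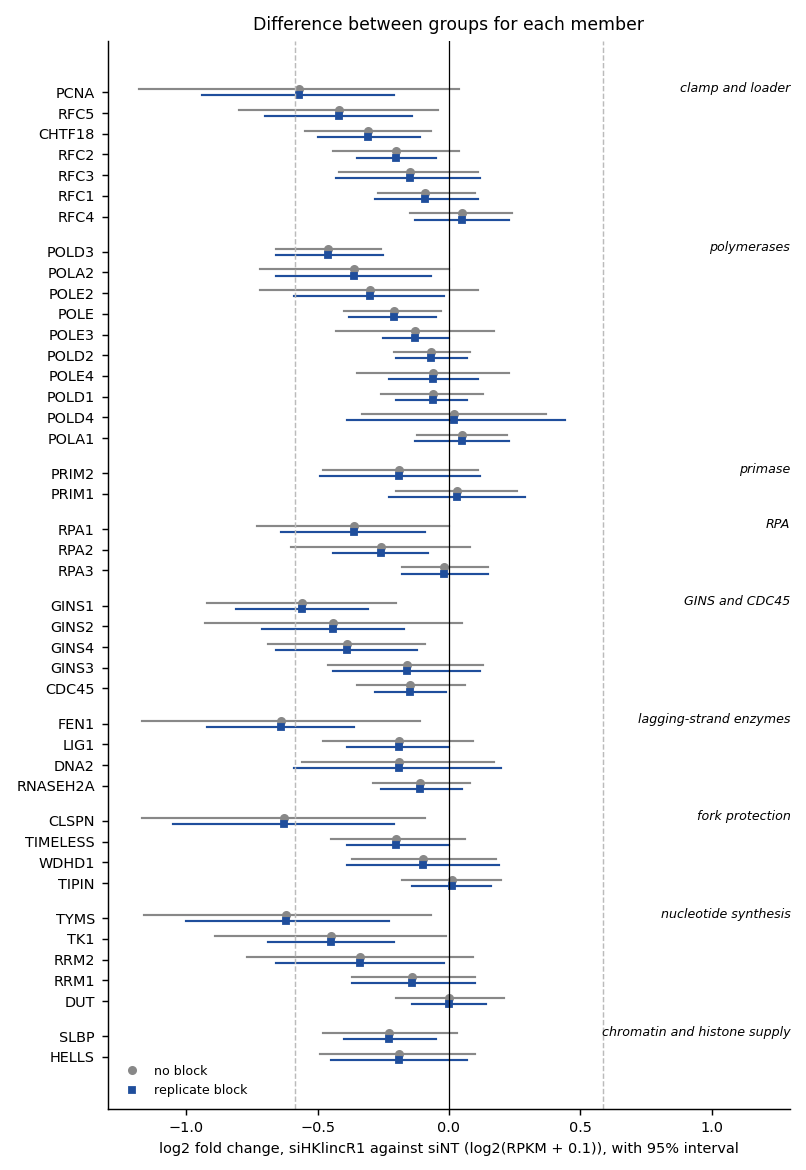
Log2 fold change of each member (siHKlincR1 against siNT) with its 95% interval, without a block (grey circles) and with replicates blocked by number (blue squares); dashed lines mark a 1.5-fold change. The 95% interval lies wholly below 0 for 11 members without the block (9.19% of all genes tested) and for 23 with it (14.0%).

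Among the clamp and its loaders, 6 of 7 estimates were below 0 and none was called (median log2 fold change -0.20; -0.29 without siHKlincR1 3 and -0.11 without siHKlincR1 2). PCNA (chr20:5095599-5107272, GRCh37) was at 82.9, 87.6 and 107 RPKM in siNT 1, 2 and 3 and at 54.3, 45.7 and 95.4 RPKM in siHKlincR1 1, 2 and 3. The groups overlapped, since siHKlincR1 3 exceeded 2 controls (log2 fold change -0.57, SE 0.26, adjusted p = 0.328). RFC5, a small subunit of the clamp loader, was at 19.9, 21.0 and 23.1 RPKM against 15.8, 12.6 and 20.0 RPKM. Only siHKlincR1 3 reached the range of the controls (log2 fold change -0.42, adjusted p = 0.282). Its neighbour in the same complex, RFC4, was at 14.9, 14.6 and 14.5 RPKM against 15.9, 13.5 and 16.2 RPKM, with a log2 fold change of 0.05 (SE 0.08, adjusted p = 0.802). The ratio of RFC5 to RFC4 was 1.45 ± 0.133 (SD, n = 3) in siNT and 1.05 ± 0.164 in siHKlincR1, with no overlap between libraries. CHTF18, which takes the place of RFC1 in an alternative loader, did not overlap between groups (log2 fold change -0.31, adjusted p = 0.243). RFC1, RFC2 and RFC3 had estimates from -0.20 to -0.09. On the opposite strand, RFC5 shares 186 exon bases with WSB2 (34.7 RPKM) and RFC4 shares 18 with EIF4A2 (27.4 RPKM). CHTF18 shares 142 with RPUSD1 (14.7 RPKM), also on the opposite strand.

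Of the polymerase subunits, 8 of 10 had estimates below 0 and none was called. Their median of -0.10 depended on single libraries, at -0.16 without siHKlincR1 3, -0.17 without siNT 2 and -0.024 without siNT 3. POLD3 (chr11:74204896-74380162) was at 5.14, 5.51 and 5.25 RPKM in siNT and at 3.72, 3.63 and 4.16 RPKM in siHKlincR1. All siHKlincR1 libraries were below all controls, siHKlincR1 3 included (27.6% lower, log2 fold change -0.46, SE 0.08, 95% interval -0.66 to -0.26, adjusted p = 0.0973). POLD1, the catalytic subunit of the same enzyme, was at 17.1, 16.5 and 18.6 RPKM against 17.2, 15.3 and 17.5 RPKM, and these groups overlapped. The ratio of POLD3 to POLD1 was 0.306 ± 0.0267 in siNT and 0.230 ± 0.0122 in siHKlincR1, whereas the ratio of POLD2 to POLD1 was 3.23 ± 0.125 and 3.23 ± 0.222. These ratios, like the others given here, were chosen after the values were seen and were not tested. Of 16 ratios computed between members, 8 overlapped between groups and 8 did not, and those that overlapped include PCNA to RFC4, RFC2 to RFC1, RPA1 to RPA3 and POLE2 to POLE. Several ratios set the lowest estimate of a role group against its highest, which favours separation. No count was made over other pairs of genes, so the 8 without overlap cannot be judged against a background. POLD3 is also the member with 3 copies of the seed site shown above.

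POLA1, the catalytic subunit of polymerase alpha, had the highest estimate of the group, with 10.8, 11.7 and 10.7 RPKM in siNT and 11.6, 10.8 and 11.9 RPKM in siHKlincR1 (log2 fold change 0.05, adjusted p = 0.746). Its accessory subunit POLA2 was at 7.64, 7.97 and 8.42 RPKM against 6.25, 4.96 and 7.71 RPKM (log2 fold change -0.36, adjusted p = 0.307). The ratio of POLA2 to POLA1 went from 0.726 ± 0.0545 to 0.549 ± 0.0970 without overlap. POLE was at 7.54, 7.63 and 7.82 RPKM against 6.44, 6.23 and 7.17 RPKM, a narrow but complete separation of the groups (log2 fold change -0.21, adjusted p = 0.269). POLE2, POLE3 and POLE4 ranged from -0.30 to -0.06 and overlapped.

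Primase gave 1 estimate on each side of 0. PRIM2, the large subunit, was at 5.36, 5.58 and 5.27 RPKM in siNT and 5.00, 3.91 and 5.43 RPKM in siHKlincR1 (log2 fold change -0.19, adjusted p = 0.475). PRIM1, the catalytic subunit, was at 16.4, 17.8 and 14.6 RPKM against 17.2, 15.1 and 17.4 RPKM (log2 fold change 0.03, adjusted p = 0.900). Both overlapped between groups. PRIM1 shares 139 exon bases with NACA (37.9 RPKM) on the same strand, so its value is uncertain.

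RPA coats single-stranded DNA, and its largest subunit RPA1 was at 27.7, 29.4 and 31.8 RPKM in siNT and 22.9, 18.4 and 28.8 RPKM in siHKlincR1 (log2 fold change -0.36, adjusted p = 0.310). The middle subunit RPA2 was at 23.3, 25.4 and 29.2 RPKM against 20.2, 18.9 and 26.6 RPKM (log2 fold change -0.26, adjusted p = 0.400). For both, siHKlincR1 1 and 2 lay below the controls and siHKlincR1 3 among them. RPA3, the smallest subunit, was at 6.04, 5.97 and 6.03 RPKM against 6.01, 5.64 and 6.21 RPKM, with a log2 fold change of -0.02 and a 95% interval of -0.18 to 0.15. The RPA3 value is uncertain, since a pseudogene copy, RPA3P1, was listed at 7.01 RPKM.

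All 5 estimates of GINS and CDC45, the helicase partners of MCM, were below 0, with a median of -0.39 (-0.53 without siHKlincR1 3 and -0.28 without siHKlincR1 2). GINS1 (chr20:25371644-25433336) was at 7.46, 7.66 and 8.61 RPKM in siNT and 5.17, 4.37 and 6.70 RPKM in siHKlincR1. Each siHKlincR1 library was below each control (31.6% lower, log2 fold change -0.56, SE 0.15, adjusted p = 0.198; 0.0554 with the block). GINS4 was also separated, at 7.11, 7.50 and 7.46 RPKM against 5.17, 4.94 and 6.85 RPKM (log2 fold change -0.39, adjusted p = 0.243). GINS2 was at 7.07, 7.06 and 8.79 RPKM against 5.02, 4.42 and 7.76 RPKM, with siHKlincR1 3 inside the control range (log2 fold change -0.44, adjusted p = 0.338).

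GINS3, the remaining subunit of the tetramer, had an estimate of -0.16 and siHKlincR1 3 as its highest library, at 4.89 RPKM. The ratio of GINS1 to GINS3 was 1.68 ± 0.0942 in siNT and 1.27 ± 0.0882 in siHKlincR1, without overlap. CDC45 had the highest estimate of the group, with 17.1, 16.5 and 18.3 RPKM against 14.7, 14.8 and 17.3 RPKM (log2 fold change -0.15, adjusted p = 0.415).

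On the lagging strand, FEN1 (chr11:61560383-61564710), which trims the flaps of Okazaki fragments, had the lowest estimate of all members. It was at 37.2, 36.4 and 46.6 RPKM in siNT and 22.8, 19.8 and 36.8 RPKM in siHKlincR1. The groups overlapped only through siHKlincR1 3, which was above siNT 2 (log2 fold change -0.64, SE 0.23, 95% interval -1.17 to -0.11, adjusted p = 0.264; 0.0534 with the block). With voom on reads and the block, FEN1 was called lower (log2 fold change -0.63, adjusted p = 0.00670). RNASEH2A, the catalytic subunit of an RNase H that removes RNA from DNA, was at 20.0, 19.4 and 20.1 RPKM against 18, 17.2 and 20.2 RPKM (log2 fold change -0.11, adjusted p = 0.505). LIG1, which seals the fragments, and DNA2, a nuclease for long flaps, each had an estimate of -0.19.

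Of the fork protection genes, CLSPN (chr1:36185819-36235579), the adaptor that passes the ATR signal to the kinase CHK1, was at 8.07, 8.82 and 9.38 RPKM in siNT. It was at 4.80, 4.38 and 8.39 RPKM in siHKlincR1, so that siHKlincR1 3 lay within the controls and the others far below (log2 fold change -0.63, SE 0.23, adjusted p = 0.268). CLSPN was called lower with voom and the block (adjusted p = 0.0261) and without siHKlincR1 3. TIMELESS and TIPIN form a complex that travels with the fork. TIPIN was at 10.5, 11.4 and 11.4 RPKM against 10.5, 12.1 and 10.9 RPKM (log2 fold change 0.01, 95% interval -0.18 to 0.20), and TIMELESS had an estimate of -0.20 (adjusted p = 0.401). WDHD1, which links polymerase alpha to the helicase, had an estimate of -0.10.

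In nucleotide synthesis, 4 of 5 estimates were below 0, and none was called (median -0.34; -0.55 without siHKlincR1 3 and -0.17 without siHKlincR1 2). TYMS (chr18:657653-673578), which makes thymidylate, was at 31.5, 31.9 and 36.8 RPKM in siNT and 21.1, 15.5 and 31.3 RPKM in siHKlincR1. The groups were separated, but siHKlincR1 3 was only just below siNT 1 (32.3% lower, log2 fold change -0.62, SE 0.23, adjusted p = 0.277). TYMS shares 967 exon bases with ENOSF1 on the opposite strand, which averaged 3.43 RPKM. DUT, the dUTPase that keeps uracil out of DNA and feeds dUMP to TYMS, was at 17.2, 15.4 and 16.9 RPKM against 16.7, 15 and 17.9 RPKM (log2 fold change 0.00, 95% interval -0.20 to 0.21). The ratio of TYMS to DUT was 2.03 ± 0.177 in siNT and 1.35 ± 0.364 in siHKlincR1, without overlap.

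Thymidine kinase TK1, the salvage route to thymidylate, was at 39.2, 35.4 and 43.4 RPKM against 29.3, 21.7 and 37 RPKM (log2 fold change -0.45, adjusted p = 0.302). Its siHKlincR1 3 value was above that of siNT 2. RRM2, whose level is known to follow S phase, was at 76.9, 82.8 and 89.7 RPKM against 62.4, 51.5 and 87.6 RPKM (log2 fold change -0.34, adjusted p = 0.383). RRM1 was at 35.9, 36.6 and 34.8 RPKM against 33.1, 28.3 and 36.7 RPKM (log2 fold change -0.14, adjusted p = 0.504). The RRM2 to RRM1 ratio was 2.33 ± 0.224 and 2.03 ± 0.310, and overlapped. The pseudogene RRM2P3 was listed at 16.8 RPKM, so reads of RRM2 may be split.

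In the chromatin and histone group, SLBP, which binds histone mRNA, was at 29.2, 29.7 and 32.5 RPKM in siNT and 25.5, 22.9 and 30.2 RPKM in siHKlincR1 (log2 fold change -0.23, adjusted p = 0.345). HELLS, a chromatin remodeller needed for DNA methylation, was at 3.95, 4.29 and 4.40 RPKM against 3.56, 3.17 and 4.37 RPKM (log2 fold change -0.19, adjusted p = 0.463). Both were lower in every pair and both overlapped between groups.

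**Figure D4:**
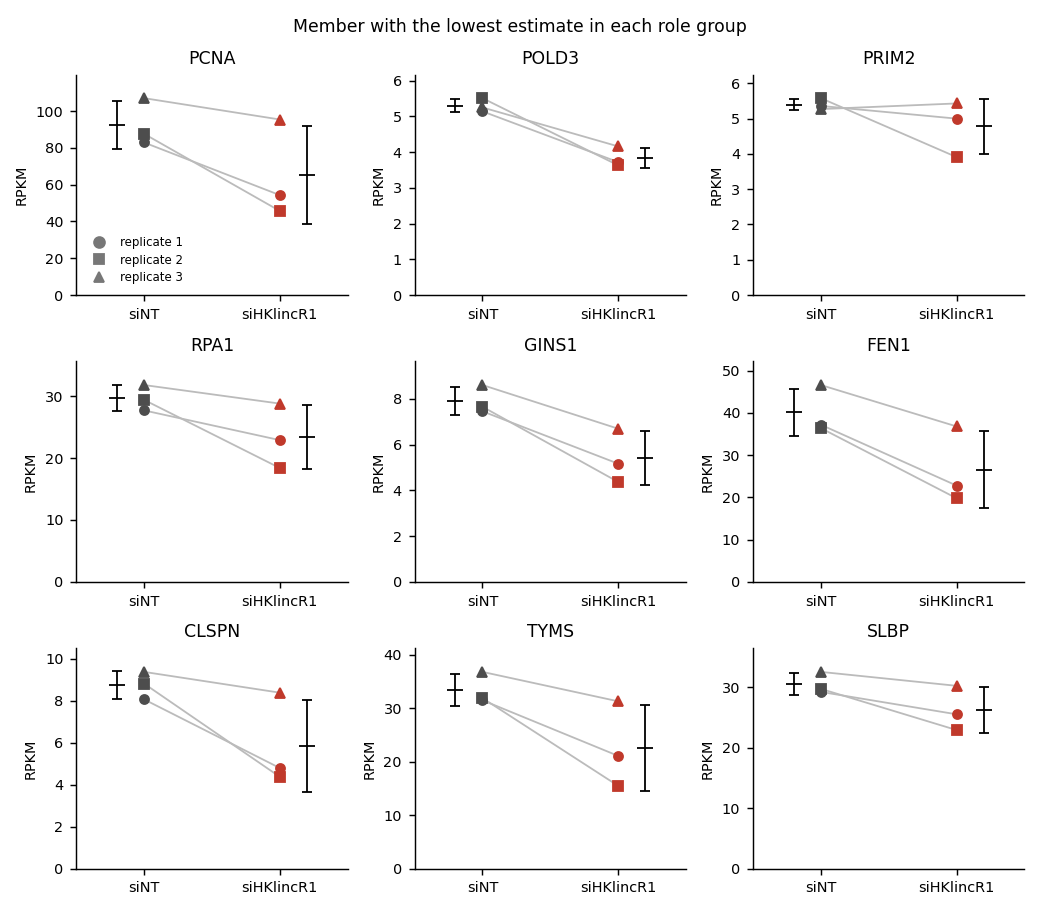
RPKM of the member with the lowest estimate in each of the 9 role groups, with lines joining libraries of the same replicate number and bars giving the mean and SD (n = 3). The siHKlincR1 3 triangle is the highest siHKlincR1 point in every panel, and POLD3, GINS1 and TYMS are the panels without overlap between groups.

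Promoters were examined because many members are known E2F targets. RefSeq sequence from 250 bases before to 50 bases after the annotated start (GRCh38.p14) was used for 37 members, and POLD3, RPA2, RPA3, GINS4 and DNA2 had no entry. At least 1 of 4 E2F-type words, each counted below, was found on either strand in 28 of the 37 (75.7%), against 15.3% of 27305 genes and 20.5% of 15843 protein-coding genes. TTCCCGC was in 18 members (48.6%, against 7.82% of genes), TTGGCGC in 10 (3.66% of genes), TTCGCGC in 5 (2.75% of genes) and TTGCCGC in 0 (2.87% of genes). Of 38 such matches, 6 shared bases with another match, CCAAT included. The word CCAAT was in 22 members (59.5%, against 39.7% of genes) and TTTGAA in 3 (8.11%, against 18.2%). Member promoters were also richer in G and C, with a median of 66% against 62.3% in protein-coding genes.

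Members with and without such a word spanned nearly the same range of change. The median log2 fold change was -0.19 with the word (range -0.63 to 0.05) and -0.15 without it (range -0.64 to 0.02). The promoters of 4 of the 5 members with the lowest estimates are shown, with E2F-type words in capitals, 3 with a match and FEN1 without one. Each runs 5′ to 3′ along the gene.
CLSPN promoter, chr1:35769929-35770228, minus strand: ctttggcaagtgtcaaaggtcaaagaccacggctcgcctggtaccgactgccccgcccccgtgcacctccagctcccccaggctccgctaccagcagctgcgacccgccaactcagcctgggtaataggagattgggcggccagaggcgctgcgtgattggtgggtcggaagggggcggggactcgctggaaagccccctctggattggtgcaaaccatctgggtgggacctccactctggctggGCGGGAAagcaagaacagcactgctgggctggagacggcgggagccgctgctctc
TYMS promoter, chr18:657403-657702, plus strand: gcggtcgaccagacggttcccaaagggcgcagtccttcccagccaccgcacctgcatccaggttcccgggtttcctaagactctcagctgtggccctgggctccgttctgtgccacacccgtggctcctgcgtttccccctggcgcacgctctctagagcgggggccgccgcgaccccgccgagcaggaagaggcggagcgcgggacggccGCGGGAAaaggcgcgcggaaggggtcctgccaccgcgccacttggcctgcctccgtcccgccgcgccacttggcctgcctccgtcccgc
GINS1 promoter, chr20:25407423-25407722, plus strand: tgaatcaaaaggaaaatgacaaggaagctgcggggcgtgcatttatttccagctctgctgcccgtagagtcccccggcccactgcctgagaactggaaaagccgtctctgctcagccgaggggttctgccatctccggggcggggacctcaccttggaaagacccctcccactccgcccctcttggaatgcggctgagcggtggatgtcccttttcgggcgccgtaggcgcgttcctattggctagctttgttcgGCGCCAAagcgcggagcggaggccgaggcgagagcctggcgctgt
FEN1 promoter, chr11:61792661-61792960, plus strand: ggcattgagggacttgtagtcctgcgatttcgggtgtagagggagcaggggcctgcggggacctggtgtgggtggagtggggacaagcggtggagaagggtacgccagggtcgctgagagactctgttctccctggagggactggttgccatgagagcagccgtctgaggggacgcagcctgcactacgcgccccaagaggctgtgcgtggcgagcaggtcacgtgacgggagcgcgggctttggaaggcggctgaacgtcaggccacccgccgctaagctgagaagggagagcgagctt
CLSPN and TYMS carry TTCCCGC and GINS1 carries TTGGCGC, each on the strand opposite to the gene, and CLSPN has 3 CCAAT matches. The members without an E2F-type word were CHTF18, POLD1, POLD2, POLD4, PRIM2, CDC45, FEN1, RNASEH2A and SLBP. No match says only that these letters are not in this window.

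Other genes of DNA replication were counted in lists of their own. Among 23 genes of origin licensing and firing, 17 estimates were below 0 (median -0.15) and none was called with all libraries and no block. Without siHKlincR1 3, CDC6, ORC1, MCM10 and TICRR were called lower, with log2 fold changes from -0.91 to -0.61. With every library their log2 fold changes ran from -0.65 to -0.41. CDC6, the licensing factor that helps load MCM, was at 24.9, 24.0 and 28.4 RPKM in siNT and 14.2, 14.3 and 21.3 RPKM in siHKlincR1, with no overlap, and was called lower with the block (log2 fold change -0.65, adjusted p = 0.0436; 0.174 without it). Of 16 other fork and checkpoint genes, 12 estimates were below 0 (median -0.11), from ATAD5, which unloads PCNA, at -0.46 to topoisomerase TOP1 at 0.35. Of 7 chromatin assembly genes, 6 were below 0 (median -0.24), with the histone chaperone ASF1B at -0.58 and CHAF1A, a subunit of the chaperone CAF-1 that PCNA recruits, at -0.49.

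Among 27 other nucleotide enzymes, 11 estimates were below 0 and the median was 0.07. Deoxycytidine kinase DCK was at -0.36, while GART, an enzyme of purine synthesis, was at 0.29. Among 14 tested repair and mitochondrial polymerases, 7 were below 0 (median 0.02), from the translesion polymerase POLH at -0.38 to the mitochondrial subunit POLG2 at 0.31. In the E2F family, 5 of 8 were below 0 (median -0.24), from E2F8 at -0.63 (adjusted p = 0.142) to E2F5 at 0.36. With all libraries, none of the genes in these lists was called on RPKM without the block, and CDC6 alone was called with it. With voom on reads and the block, CDC6, ORC1 and E2F8 were called lower. Without siHKlincR1 3 and without the block, 8 genes were called lower, the 4 of origin licensing named above, ASF1B and CHAF1A of chromatin assembly, and E2F2 and E2F8.

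**Figure D5:**
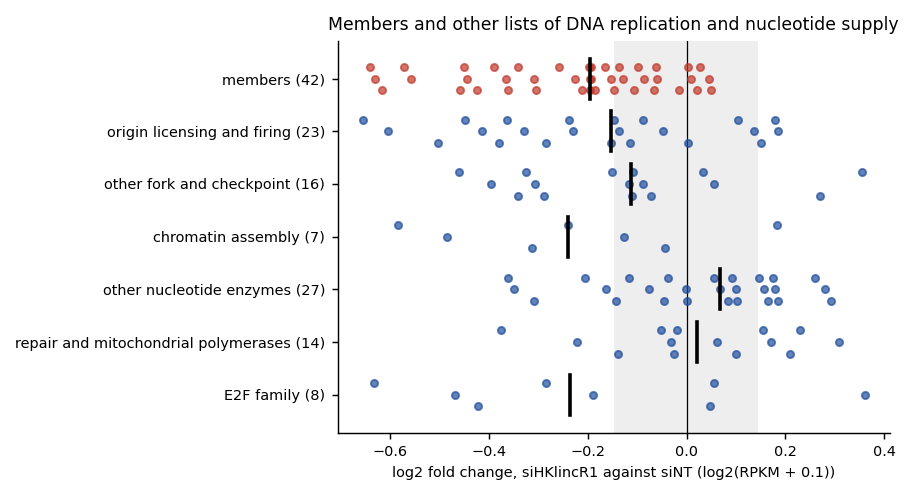
Log2 fold change of the 42 members (red) and of genes in 6 other lists (blue), with the number of genes in brackets, a black bar at each list's median, and the middle 50% of all tested genes in grey. Medians run from -0.24 for chromatin assembly and the E2F family to 0.07 for other nucleotide enzymes, with the members at -0.19.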

How the data were processed

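Polyadenylated RNA of 6 H460 cultures was sequenced from strand-specific libraries. Per the labels and the study's methods, the authors used CASAVA 1.8.2, summarised reads by gene with featureCounts (Rsubread; Ensembl v74 models, hg19/GRCh37) and deposited RPKM values for each library; the aligner and the strand setting of the counting are not given in the sources used here. RPKM divides by gene length and depth and not by composition. Reads were worked back from the RPKM steps and came out whole, with 90.1% to 91.3% of each total on listed genes, and POLD4 has the fewest reads of the members (142 to 186 per library). Symbols came from GENCODE v44 on GRCh37 (55538 of 57773 identifiers matched).

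Values were tested as log2(RPKM + 0.1) with limma 3.58.1 in R 4.3.3 (moderated test, variance trend, two-sided) over the 15451 genes that averaged 0.5 RPKM or more, with Benjamini-Hochberg adjustment over all of them. Calls required an adjusted p below 0.05 together with a change above 1.5-fold. The labels call the cultures biological replicates. Deviations from the group means correlated between libraries of the same number (0.142, 0.137 and 0.266, mean 0.182). The mean for different numbers, -0.089, follows largely from the first, because deviations within a group sum to 0. Libraries siNT 1 and siHKlincR1 2 reached 0.113. The numbers were taken as pairs from these same data, and a fit with the number as a block was an alternative. The code was tested on simulated data. Alternatives covered the pseudocount, the filter, centring, quantile normalization, the variance trend, the fold threshold, members without the seed site, voom on reads and each library left out; voom with the block, and the pathway lists under all settings, were added after the data were seen. Values in every library were given for the lowest and highest estimate of each role group and for members called with or without the block, and up to 3 genes with the largest absolute change were named per pathway list. Other members shown in full, GART, E2F5 and list genes called only under an alternative were chosen after their values were seen. Members and lists were chosen with earlier results of these data known. Genes with pseudogenes or overlapping neighbours are uncertain: 12 members have 27 named pseudogenes, and 9 share exon bases with another gene at 1 RPKM or more.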

Additional observations from a re-analysis of the deposited data

How the results depend on the processing

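The count of members called lower was 0 under 15 of 17 alternatives, no fold threshold included; it was 3 with voom on reads and the replicate block and 7 without siHKlincR1 replicate 3, so it ran from 0 to 7 over the comparisons that left out 1 library. The replicate block itself called 0 members and changed no other member's call. In the other lists, the counts called lower in origin licensing, chromatin assembly and the E2F family were 0, 0 and 0; they became 1, 0 and 0 with the block, 2, 0 and 1 with voom and the block, and 4, 2 and 2 without siHKlincR1 replicate 3. The median log2 fold change of the members kept its direction in all alternatives, from -0.20 to -0.17 with all libraries and from -0.30 to -0.093 with 1 left out. HKlincR1 stayed below -1.6 in all of them. Of 42 members, 33 had an estimate below 0 under every alternative. A change of sign occurred in 15 of 671 member values, all with 1 library left out: RFC4 (-0.00064 to 0.13), POLD4 (-0.091 to 0.083), POLE4 (-0.17 to 0.032), PRIM1 (-0.047 to 0.10), RPA3 (-0.046 to 0.023), WDHD1 (-0.20 to 0.022), TIPIN (-0.049 to 0.053) and DUT (-0.056 to 0.070). The cause was not tested. With 3 libraries a group and no block, the 95% intervals of PCNA, FEN1, CLSPN and TYMS were over 1 log2 unit wide, and that of POLD3 ran from -0.66 to -0.26.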
